A study of Arabidopsis thaliana with 12 samples.

Results

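Valinomycin was set directly against the bacterium Pseudomonas syringae pv. tomato DC3000 (DC3000 below) in seedlings of Arabidopsis thaliana. The comparison uses 6 of the 12 RNA-seq libraries of the series: 3 from seedlings given 10 µM valinomycin alone and 3 from seedlings given DC3000 alone. Per the labels, the seedlings were 2 to 3 weeks old and were infiltrated under vacuum, the tissue is given as leaf, and the samples were taken at 6 h. Neither the dose of bacteria nor the plant genotype is stated in the labels. The other 6 libraries, 3 of a mock treatment and 3 given valinomycin and DC3000 together, enter no test here and serve only to read levels. Of the 20233 genes with values, the 18048 with a mean of at least 1 over the 12 libraries were tested. The values are read here as FPKM, a level scaled to transcript length and to the size of the library. Differences are given as log2(FPKM + 1), valinomycin minus DC3000, ± their standard error, so a positive value is higher with valinomycin, and the change of a gene with low values is understated. A gene is called when its limma p-value, adjusted over all 18048 genes by the method of Benjamini and Hochberg, lies under 0.05. A difference between treatments does not by itself say which of them moved a gene away from mock, so mock levels are given for the genes that matter most.

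Valinomycin is an ionophore that carries potassium ions across membranes and so collapses the electrical potential over the inner mitochondrial membrane. Plants answer faults in mitochondria by changing nuclear genes, among them alternative oxidase, chaperones and enzymes that attach glucose or glutathione to foreign compounds. DC3000 infects leaves, injects effector proteins that blunt immunity, and makes coronatine, a toxin that mimics the active form of the hormone jasmonate. Coronatine binds the jasmonate receptor, which leads to the destruction of JAZ repressors and frees MYC transcription factors to act. Jasmonate and salicylic acid signalling often oppose each other in leaves.

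The 6 libraries held totals of 1086193 to 1350272 FPKM. Sequencing depth could be read from regular steps among low values in DC3000 replicates 1 and 2, at 11.9 and 12.8 M fragments. The step in valinomycin replicate 2 would give 21.9 M. No such step stood out in valinomycin replicates 1 and 3 or DC3000 replicate 3, whose depth is unknown. Chloroplast genes held 34.5 to 40.3% of the values with valinomycin and 34.5 to 39.8% with DC3000 (exact two-sided permutation p = 0.9). The 2 nuclear ribosomal RNA loci held 9.50, 11.5 and 12.1% with valinomycin and 13.2, 13.3 and 21.4% with DC3000. These shares did not overlap, at an exact two-sided permutation p = 0.1, the smallest that 3 against 3 libraries can give, and their part in the results below was not tested. Nothing in the labels says that libraries of a group came from separate plants, so the p-values speak of spread among these libraries, which may be technical.

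In each group replicate 3 lay nearer to the other treatment. Among the 1459 genes at least 2-fold higher with valinomycin, valinomycin replicate 3 was the lowest library of its group for 1290, and its median difference from the DC3000 mean was 1.17, against 1.96 and 1.72 for replicates 1 and 2. Among the 608 genes at least 2-fold higher with DC3000, DC3000 replicate 3 was the lowest of its group for 574, and the median differences of the valinomycin mean from DC3000 replicates 1 to 3 were -1.78, -1.83 and -1.22. Root markers with values (5 of the 9 listed; IRT1, COBL9, EXPA7 and NRT2.1 were not analysed here) summed to 16.9 to 20.4 FPKM with valinomycin and 11.4 to 16.7 FPKM with DC3000; their part in the results was not tested either. The summed markers of mesophyll (11789 to 13662 against 12631 to 14263 FPKM), guard cells, vascular tissue, and epidermis with shoot meristem overlapped between the groups. In these bulk samples fewer cells of a type and less RNA per cell cannot be told apart.

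Valinomycin and DC3000 left the seedlings with widely different transcriptomes. Of the 18048 genes 4139 (22.9%) were called, 2923 higher with valinomycin (16.2%) and 1216 higher with DC3000 (6.74%). At least 2-fold differences were called for 1459 genes higher with valinomycin (8.08%) and 608 higher with DC3000 (3.37%). The excess on the valinomycin side depended on scaling: after median-of-ratios rescaling 2517 genes were called higher with valinomycin and 2056 with DC3000. The counts also rested on single libraries, falling to 1716 and 782 without valinomycin replicate 2 and to 1837 and 708 without DC3000 replicate 1. Without DC3000 replicate 2 they were 2015 and 706, and without valinomycin replicate 3 they were 3426 and 1573. For 13607 genes (75.4%) the 95% confidence interval of the difference lay wholly within 2-fold, and the median difference over all genes was 0.06. The libraries of the 2 groups did not overlap in 7328 genes (40.6%). Among genes called at least 2-fold this held for 1455 of the 1459 and for all 608, so lack of overlap adds little to such a call.

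**Figure D1:**
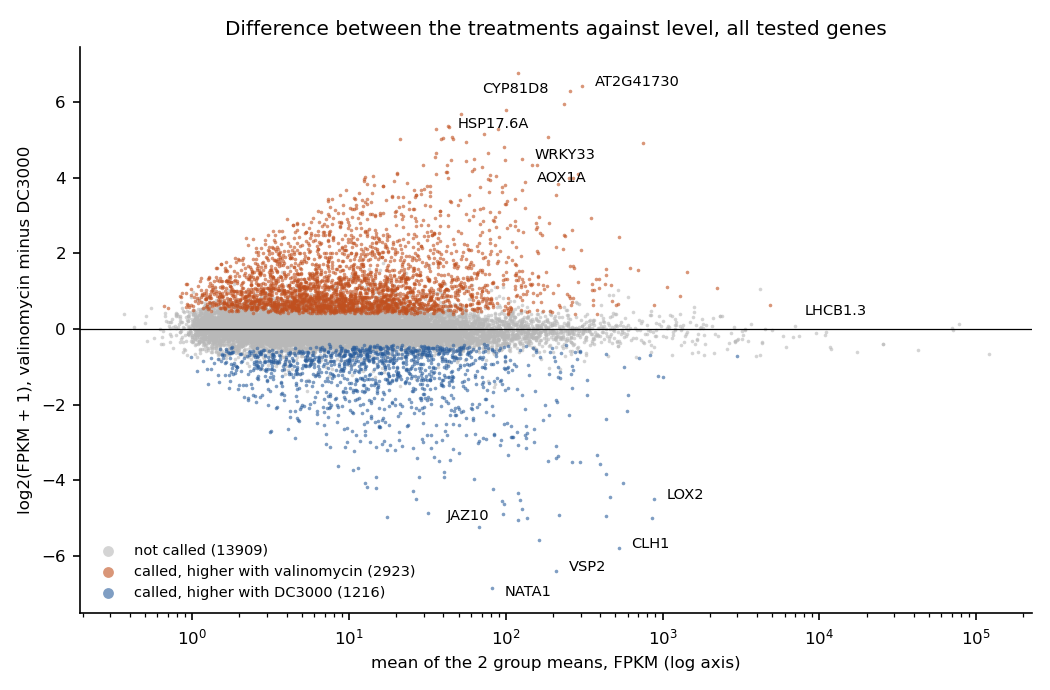
Each point is 1 of the 18048 tested genes: the x axis (log scale) is the mean of the valinomycin and DC3000 group means in FPKM, the y axis the difference on log2(FPKM + 1), valinomycin minus DC3000. Called genes are coloured by direction, 2923 above and 1216 below the line; the largest differences reach 6.78 (AT5G24640) and -6.83 (NATA1), and the abundant light-harvesting gene LHCB1.3 sits at -0.07.

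The genes furthest above DC3000 with valinomycin encode enzymes of detoxification, chaperones, cell wall enzymes and several proteins without a known function. AT5G24640, an uncharacterised gene (chromosome 5, 8436352 to 8436895 on the plus strand, coordinates of TAIR10.1 here and below), stood at 374, 263 and 77.5 FPKM in valinomycin replicates 1 to 3 and at 1.5, 0.198 and 0.965 FPKM in DC3000 replicates 1 to 3 (difference 6.78 ± 0.53, adjusted p = 0.000222). AT2G41730, annotated as a calcium-binding site protein, stood at 928, 679 and 227 FPKM and at 5.67, 5.17 and 4.59 FPKM (difference 6.42 ± 0.44, adjusted p = 0.000127). The cytochrome P450 gene CYP81D8 (AT4G37370, chromosome 4, 17569740 to 17571743 on the minus strand) stood at 827, 530.5 and 162 FPKM and at 3.19, 2.55 and 9.16 FPKM (difference 6.28 ± 0.60, adjusted p = 0.000419). The 15 largest were picked among called genes whose groups did not overlap, so their lack of overlap is no result. In these named genes replicate 3 was the lowest of the valinomycin libraries. The other 12 of the 15 largest were AT4G08555, AT5G51440 (an HSP20-like chaperone), AT2G04050 (a MATE efflux carrier), the protein kinase gene AGC2-1, the glutathione S-transferase gene GSTU9, the glycosyltransferase genes AT1G05675 and UGT74E2, AT2G18193, the xyloglucan-modifying enzyme genes XTH18 and XTR6, PHI-1 and the acetyltransferase gene AT2G32020, with differences of 5.04 to 5.95. The mean of the libraries given both treatments lay between the single treatments for all 15 and nearer to valinomycin for all 15. Mock was nearer to DC3000 in all of them except PHI-1, whose mock mean of 65.4 FPKM lay nearer to its valinomycin mean. The wider set was less uniform. Of the 1459 genes at least 2-fold higher with valinomycin, mock was nearer to valinomycin in 396. The mean with both treatments was nearer to valinomycin in 1181 of them and lay between the single treatments in 1196.

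The genes furthest above valinomycin with DC3000 are led by jasmonate output genes. NATA1 (AT2G39030, chromosome 2, 16298110 to 16299205 on the plus strand), an acetyltransferase that makes N-acetylornithine, stood at 186, 172 and 128 FPKM in DC3000 replicates 1 to 3 and at 0.0733, 0.858 and 0.415 FPKM in valinomycin replicates 1 to 3 (difference -6.83 ± 0.23, adjusted p = 1.52e-05). The vegetative storage protein gene VSP2 (AT5G24770, chromosome 5, 8500468 to 8502224 on the minus strand) stood at 469, 547 and 231 FPKM and at 4.96, 2.03 and 4.64 FPKM (difference -6.39 ± 0.36, adjusted p = 9.03e-05). CLH1, a chlorophyllase (AT1G19670, chromosome 1, 6803486 to 6805092 on the minus strand), stood at 1149.9, 1242 and 705 FPKM and at 17.3, 15.3 and 19.5 FPKM (difference -5.78 ± 0.22, adjusted p = 2.42e-05). Lack of overlap was a condition of the choice here too. DC3000 replicate 3 was the lowest DC3000 library in each of these genes, and the mock means of 0.251 FPKM, 2.58 FPKM and 16.3 FPKM were close to the valinomycin values. BGLU18, the beta-glucosidase that releases abscisic acid from its glucose ester, and AT1G52410 (TSA1, a TSK-associating protein) differed by -5.0 ± 0.35 and -4.91 ± 0.25 (adjusted p = 0.000127 and 9.03e-05). Arginase gene ARGAH2, the coronatine-induced aminotransferase gene CORI3, the 6-phosphogluconolactonase gene PGL5, VSP1, JAZ10, the methyltransferase gene IGMT5, the myrosinase-binding protein gene MBP2, the lipase gene AT1G54020, AT3G28270 and AT1G53903 completed the 15 largest, at -5.57 to -4.61. AT1G53903 has a near-identical copy, AT1G53885, with which it may share reads. Mock was nearer to valinomycin in all 15, and the mean with both treatments lay between the single treatments and nearer to DC3000 in all 15. Of all 608 genes at least 2-fold higher with DC3000, mock was nearer to valinomycin in 554. The mean with both treatments was nearer to valinomycin in 213 of them and lay between the single treatments in 503.

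**Figure D2:**
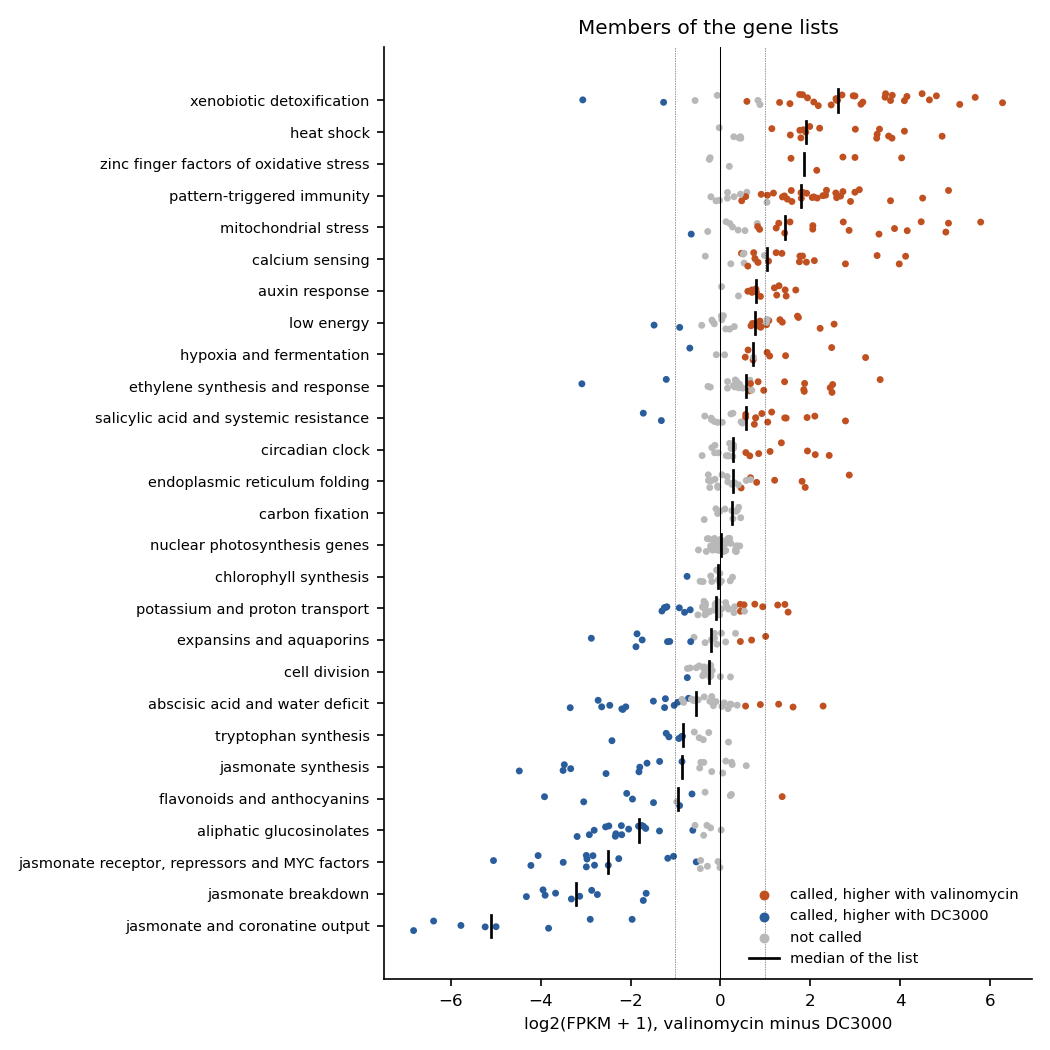
Each point is a tested gene of a list, placed by its difference on log2(FPKM + 1), valinomycin minus DC3000; called genes are coloured and the black bar is the median of the list. The lists run from jasmonate and coronatine output (median -5.12) to xenobiotic detoxification (median 2.61), with nuclear photosynthesis genes at 0.01; dotted lines mark a 2-fold difference.

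Genes of jasmonate synthesis, repression, breakdown and output were higher with DC3000. Of the enzymes of jasmonate synthesis 10 of 19 tested members were called higher with DC3000 and 0 with valinomycin (median -0.85, against 0.06 over all genes). Over all genes 6.74% were called higher with DC3000 and 16.2% higher with valinomycin, and the counts of each list below are to be read beside these shares. LOX2, the lipoxygenase at the entry to the pathway in chloroplasts (AT3G45140, chromosome 3, 16525245 to 16529352 on the plus strand), stood at 1973, 1990.3 and 1094 FPKM in DC3000 replicates 1 to 3 and at 57.2, 74.5 and 87.5 FPKM in valinomycin replicates 1 to 3 (difference -4.48 ± 0.26, adjusted p = 9.03e-05). The next enzymes of the chain, allene oxide synthase AOS and allene oxide cyclases AOC2 and AOC1, differed by -3.33 ± 0.23, -3.50 ± 0.19 and -3.48 ± 0.34 (adjusted p = 0.000121, 9.03e-05 and 0.000436). None of their libraries overlapped between the groups, which held for all 608 genes called at least 2-fold higher with DC3000. OPR3, the reductase of the peroxisomal part of the pathway, was also called higher with DC3000 (-2.55 ± 0.30, adjusted p = 0.000872), and JAR1, which joins jasmonate to isoleucine, was not called (-0.43 ± 0.18, adjusted p = 0.124, and 0.0489 with nuclear genes scaled to 1 total). The mock means of LOX2 and AOC2 were 20.4 FPKM and 2.15 FPKM, so valinomycin libraries stood above mock in both genes while far below DC3000. Without valinomycin replicate 3 a further 2 members were called higher with valinomycin.

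The receptor gene COI1 was not called (-0.05 ± 0.15, adjusted p = 0.842, 95% interval -0.40 to 0.30), while most of the repressor genes it acts on were. Of the 19 tested members among receptor, repressors and MYC factors, 14 were called higher with DC3000 and 0 with valinomycin (median -2.50). The repressor gene JAZ10 (AT5G13220, chromosome 5, 4218786 to 4221077 on the plus strand) stood at 274, 284 and 139 FPKM with DC3000 and at 8.73, 5.60 and 3.67 FPKM with valinomycin (difference -5.05 ± 0.33, adjusted p = 0.000106). JAZ5, the jasmonate ZIM-domain gene AT3G22275 and JAZ9 followed at -4.22 ± 0.34, -4.06 ± 0.46 and -3.50 ± 0.33 (adjusted p = 0.000259, 0.000793 and 0.000421). AT3G22275 and JAZ10 overlap exons of a gene on the opposite strand, and whether reads were counted by strand is not stated in the labels. The 250 bases before the start of AT3G22275 (chr3:7879811-7880060, minus strand, from the RefSeq genome TAIR10.1) are shown because they hold a G-box, CACGTG, in capitals, the sequence to which MYC factors bind.
AT3G22275: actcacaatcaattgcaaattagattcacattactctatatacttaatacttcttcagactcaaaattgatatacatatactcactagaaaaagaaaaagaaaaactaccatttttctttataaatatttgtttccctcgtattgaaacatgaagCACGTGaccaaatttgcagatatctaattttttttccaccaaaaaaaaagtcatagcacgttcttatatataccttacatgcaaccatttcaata

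MYC2, the transcription factor that JAZ proteins restrain, stood at 172, 170.4 and 102 FPKM and at 27.6, 17.9 and 15.6 FPKM (difference -2.80 ± 0.26, adjusted p = 0.0004), whereas MYC3 and MYC4 were not called (-0.45 and -0.44, adjusted p = 0.0809 and 0.178). MYC3 was called after median-of-ratios rescaling (-0.54, adjusted p = 0.0330), with nuclear genes scaled to 1 total (0.0190) and without DC3000 replicate 3 (0.0440), and MYC4 without DC3000 replicate 3 (0.0454). MYC2 also overlaps a gene on the opposite strand, AT1G32630.

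All 10 tested genes of jasmonate breakdown and all 8 of jasmonate and coronatine output were called higher with DC3000. The cytochrome P450 CYP94B3, which oxidises the active hormone, stood at 131, 115 and 111 FPKM with DC3000 and at 9.54, 7.87 and 3.97 FPKM with valinomycin (difference -3.95 ± 0.26, adjusted p = 0.000106). JRG21, a 2-oxoglutarate-dependent oxygenase that hydroxylates jasmonate, and JMT, which makes methyl jasmonate, differed by -4.32 ± 0.25 and -3.67 ± 0.32 (adjusted p = 9.03e-05 and 0.000319). The output genes VSP1 and CORI3 differed by -5.24 ± 0.38 and -5.0 ± 0.26 (adjusted p = 0.000171 and 9.03e-05). NAC019 and NAC055, transcription factors that act on salicylic acid metabolism downstream of coronatine, were at -2.90 and -1.97 (adjusted p = 0.00396 and 0.00659). Of the 16 genes of the output list 8 have values, so its count covers a part of it.

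**Figure D3:**
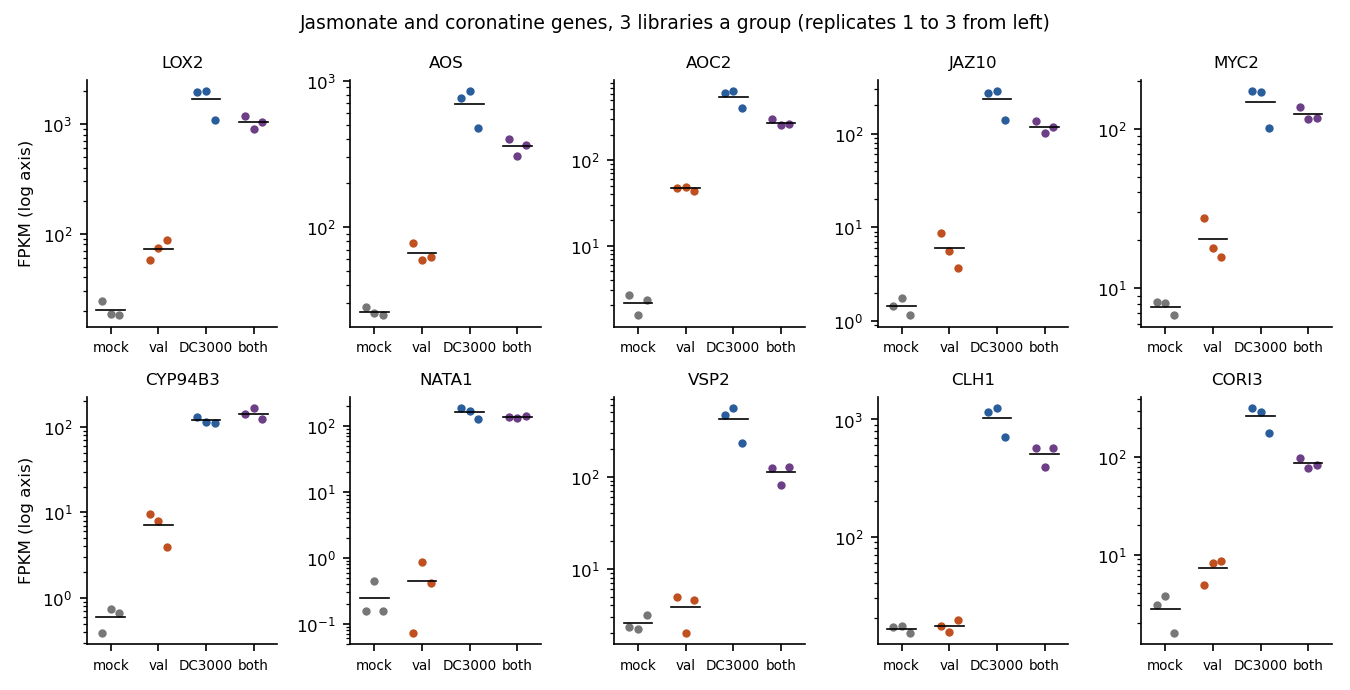
FPKM (log axis) of 10 jasmonate and coronatine genes in each library, replicates 1 to 3 from left to right in each group; bars are group means, val is valinomycin and both is valinomycin with DC3000. In each of the 10 panels all 3 DC3000 libraries lie above all 3 valinomycin libraries, as for LOX2 at 1973, 1990.3 and 1094 FPKM against 57.2, 74.5 and 87.5 FPKM.

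Most aliphatic glucosinolate genes were higher with DC3000 too, and the indolic branch was split. Aliphatic glucosinolates are sulphur-rich defence compounds made from methionine. Of the 21 tested genes of their synthesis 16 were called higher with DC3000 and 0 with valinomycin (median -1.82). All genes were called so at 6.74% and 16.2%. CYP79F1, which makes the first committed oxime, stood at 34.5, 37.5 and 23.7 FPKM with DC3000 and at 1.25, 1.45 and 7.06 FPKM with valinomycin (difference -3.19 ± 0.45, adjusted p = 0.00176). IMD1 and BCAT4, enzymes of methionine chain elongation, differed by -2.92 ± 0.28 and -2.56 ± 0.37 (adjusted p = 0.000436 and 0.00199). MYB29, a regulator of the pathway, was at -2.20 ± 0.38 (adjusted p = 0.00409), and the regulator MYB28 was not called (-0.30, adjusted p = 0.451). Groups did not overlap in the called genes named here. Of the tryptophan synthesis genes 6 of 11 were called higher with DC3000 and 0 with valinomycin, among them ASA1, the entry enzyme (-1.21 ± 0.16, adjusted p = 0.00133), and PAI2 (-2.41 ± 0.19, adjusted p = 0.000222), which may share reads with its near-identical copy PAI1.

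Indole glucosinolate genes went both ways, 6 of 14 tested higher with valinomycin and 7 higher with DC3000. The shares over all genes were 16.2% and 6.74%. The regulator MYB34, the methyltransferase IGMT5 and the hydroxylase CYP81F4, all called higher with DC3000, were at -2.81 ± 0.34, -4.90 ± 0.30 and -2.22 ± 0.31 (adjusted p = 0.000928, 9.03e-05 and 0.00179). The regulator MYB51 and the hydroxylase CYP81F2, which acts in defence against microbes, were called higher with valinomycin at 2.33 ± 0.14 and 2.84 ± 0.36 (adjusted p = 9.03e-05 and 0.00111). CYP81F2 stood at 16.1, 10.7 and 5.67 FPKM with valinomycin and at 0.266, 0.284 and 1.23 FPKM with DC3000, with no overlap. The methyltransferases IGMT1 to IGMT4 were higher with valinomycin as well (1.83 to 3.37), but IGMT2 and IGMT3 are near-identical copies and may share reads. Camalexin genes were split in the same way. CYP79B2 and CYP79B3, which feed camalexin and indole glucosinolates alike, were called higher with DC3000 (-1.88 ± 0.30 and -2.85 ± 0.28, adjusted p = 0.00289 and 0.000479). PAD3, the P450 of the last step to camalexin (AT3G26830, chromosome 3, 9887917 to 9889791 on the plus strand), stood at 24.3, 25.6 and 12.1 FPKM with valinomycin and at 0.722, 0.744 and 1.21 FPKM with DC3000 (difference 3.46 ± 0.27, adjusted p = 0.000222); its mock mean was 0.210 FPKM.

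Flavonoid genes were called higher with DC3000 in 7 of 12 tested members and higher with valinomycin in 1, the repressor MYBL2 (1.38 ± 0.15, adjusted p = 0.00078). Over all genes 6.74% and 16.2% were called in these directions. Chalcone synthase CHS, the first enzyme, stood at 31.7, 43.5 and 12.1 FPKM with DC3000 and at 0.721, 0.339 and 1.41 FPKM with valinomycin, with the mock mean of 11.4 FPKM between them (difference -3.92 ± 0.42, adjusted p = 0.000672). The activator PAP1 differed by -3.04 ± 0.25 (adjusted p = 0.000289), while the later enzymes F3H and DFR were not called (0.22 and -0.34, adjusted p = 0.476 and 0.471). Of the list's 24 genes 14 have values. With the filter raised to a mean of at least 5, 4 members were called higher with DC3000.

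Abscisic acid and water deficit genes were divided, 13 of 36 tested higher with DC3000 and 5 higher with valinomycin (median -0.54). The shares over all genes were 6.74% and 16.2%, so the 5 are near the background. RD20, a caleosin of lipid bodies, stood at 463, 473 and 244 FPKM with DC3000 and at 50.7, 48.3 and 19.2 FPKM with valinomycin (difference -3.34 ± 0.39, adjusted p = 0.00085). The NAC factor RD26 and the proline synthesis enzyme P5CS1 differed by -2.72 ± 0.30 and -2.64 ± 0.21 (adjusted p = 0.000718 and 0.000222). In all of these the groups did not overlap. Among the 5 genes higher with valinomycin were the receptors PYL4 and PYL5 (1.62 ± 0.22 and 1.3 ± 0.32, adjusted p = 0.00164 and 0.0198) and CYP707A3, which degrades the hormone (2.29 ± 0.26, adjusted p = 0.000823). The call of PYL5 was lost without valinomycin replicate 2 or any of the DC3000 libraries (adjusted p = 0.0557 to 0.0731), and the count of 5 then fell to 3. NCED3, the rate-limiting enzyme of abscisic acid synthesis, was not called (-0.59 ± 0.31, adjusted p = 0.217, and 0.0321 without DC3000 replicate 3). The expansin EXPA10 and the plasma membrane aquaporins PIP1;4 and PIP1;1 were called higher with DC3000 (-2.87 ± 0.26, -1.88 ± 0.26 and -1.74 ± 0.24, adjusted p = 0.000357, 0.00157 and 0.00154), as were 7 of 19 expansins and aquaporins in all. A further 3 members were called higher with valinomycin, but 0 after median-of-ratios rescaling, after scaling nuclear genes to 1 total, or without valinomycin replicate 2, DC3000 replicate 1 or DC3000 replicate 2, and 1 without DC3000 replicate 3.

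Genes of mitochondrial stress and of detoxification were higher with valinomycin. Of the mitochondrial stress list 17 of 25 tested members were called higher with valinomycin and 1, the uncoupling protein gene UCP1, higher with DC3000 (median 1.43). All genes were called so at 16.2% and 6.74%. The UCP1 call was lost without valinomycin replicate 2 (adjusted p = 0.0540), DC3000 replicate 1 (0.0625) or DC3000 replicate 2 (0.0537). AOX1A, the alternative oxidase that passes electrons to oxygen around the later complexes of the respiratory chain (AT3G22370, chromosome 3, 7906521 to 7908746 on the plus strand), stood at 359.6, 276 and 114 FPKM in valinomycin replicates 1 to 3 and at 13.3, 17.1 and 12.9 FPKM in DC3000 replicates 1 to 3 (difference 3.88 ± 0.37, adjusted p = 0.000436). AT2G21640, annotated as a marker of the oxidative stress response, stood at 233, 213 and 121 FPKM and at 8.80, 7.16 and 5.98 FPKM (difference 4.47 ± 0.25, adjusted p = 9.03e-05). DC3000 libraries of both genes also lay above their mock means of 4.37 FPKM and 2.06 FPKM, so the difference is one between a larger and a smaller level above mock, and the groups did not overlap. The small heat shock protein genes AT5G51440 and HSP23.6-MITO differed by 5.80 ± 0.38 and 5.02 ± 0.33 (adjusted p = 0.000105 and 0.000105). AT5G51440 stood at 1.45, 2.36 and 3.25 FPKM with DC3000 beside a mock mean of 2.36 FPKM.

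NAC013, a membrane-bound factor that binds the mitochondrial dysfunction motif, was called higher with valinomycin (2.74 ± 0.42, adjusted p = 0.00248), as was RCD1, a nuclear protein that binds it and restrains it (1.3 ± 0.19, adjusted p = 0.00218). NAC017, which is activated by cleavage at the membrane, was not called (0.13 ± 0.17, adjusted p = 0.653, 95% interval -0.27 to 0.53). The outer membrane protein OM66 and the dicarboxylate carrier DIC2 were at 4.16 ± 0.45 and 3.53 ± 0.48 (adjusted p = 0.000664 and 0.00155). The alternative NADH dehydrogenase NDA2 was called at 1.24 ± 0.20 (adjusted p = 0.00329), and NDB2 was not (0.82 ± 0.33, adjusted p = 0.115, and 0.00280 without valinomycin replicate 3).

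Windows of the promoters of these genes are shown because they hold the mitochondrial dysfunction motif, searched as CTTG, any 5 bases, and CAAG or CACG, on both strands between 250 bases before and 50 bases after the annotated start. Sequences are from the RefSeq genome TAIR10.1, in the direction of the gene, 5′ to 3′, with the motif in capitals and 10 bases on each side.
AT5G24640 (chr5:8436262-8436294, plus strand): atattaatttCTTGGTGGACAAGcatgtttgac
AT2G41730 (chr2:17409351-17409383, plus strand): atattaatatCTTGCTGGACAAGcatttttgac
CYP81D8 (chr4:17571861-17571893, minus strand): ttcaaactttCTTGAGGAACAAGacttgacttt
AT4G08555 (chr4:5447920-5447952, plus strand): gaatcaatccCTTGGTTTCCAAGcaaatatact
AT5G51440 (chr5:20891043-20891075, plus strand): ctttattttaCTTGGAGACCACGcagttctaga
AT1G05675 (chr1:1702835-1702867, minus strand): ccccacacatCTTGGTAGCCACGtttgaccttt
AT2G18193 (chr2:7919413-7919445, minus strand): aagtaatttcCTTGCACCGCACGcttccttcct
HSP23.6-MITO (chr4:12916870-12916902, plus strand): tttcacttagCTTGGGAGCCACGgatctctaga
AT2G21640 (chr2:9254317-9254349, plus strand): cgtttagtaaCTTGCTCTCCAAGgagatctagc
AOX1A (chr3:7906508-7906540, plus strand): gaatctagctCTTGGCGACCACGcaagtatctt

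The windows of AT5G24640 and AT2G41730, the 2 largest differences, are identical at 30 of 33 bases. AOX1A holds the motif at 2 places, and its window above shows the first of them. AT2G04050, the efflux carrier gene, also holds the motif at 2 places, and the 250 bases before its start (chr2:1339469-1339718, minus strand) are shown with both in capitals.
AT2G04050: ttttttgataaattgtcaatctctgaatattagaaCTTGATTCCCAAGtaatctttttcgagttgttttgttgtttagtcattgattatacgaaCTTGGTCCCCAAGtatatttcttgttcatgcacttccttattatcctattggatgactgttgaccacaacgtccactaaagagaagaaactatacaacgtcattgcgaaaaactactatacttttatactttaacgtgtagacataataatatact

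The motif was in 9 of the 25 promoters of the mitochondrial stress list (36.0%) and in 9 of the 15 genes with the largest differences on the valinomycin side, against 0 of the 15 on the DC3000 side. Of all 17870 promoters of tested nuclear genes 177 (0.99%) hold it. Among genes at least 2-fold higher with valinomycin the share was 2.81% (41 of 1458 promoters), and among those at least 2-fold higher with DC3000 it was 0.824% (5 of 607). Read from the motif, 56 of the 177 genes (31.6%) were called higher with valinomycin and 8 higher with DC3000, so most genes that hold it were not called. The motif is named for the response that the mitochondrial stress list gathers, and that list was chosen with earlier results known. Its 36.0% is therefore no independent result. AT5G51440 and UGT74E2 are in the list and among the 15 largest alike. A match of letters is a description and not a site or a cause.

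Detoxification genes were the list with the highest median, 2.61, with 29 of 35 tested members called higher with valinomycin and 2 higher with DC3000. For all genes the shares were 16.2% and 6.74%. AT2G04050 stood at 158, 109 and 39.6 FPKM with valinomycin and at 0.531, 0.613 and 1.15 FPKM with DC3000 (difference 5.68 ± 0.44, adjusted p = 0.000206). GSTU9 and GSTU24, transferases that attach glutathione to foreign compounds, differed by 5.33 ± 0.32 and 4.66 ± 0.42 (adjusted p = 9.03e-05 and 0.000357), and the transporters ABCC3 and ABCB4 by 4.49 ± 0.48 and 4.81 ± 0.37 (adjusted p = 0.000664 and 0.000203); ABCB4 shares exon bases with AT2G46995 on the same strand. The oxophytodienoate reductases OPR1 and OPR2, which act on reactive carbonyl compounds, were at 3.83 ± 0.52 and 3.17 ± 0.46 (adjusted p = 0.00155 and 0.00192), opposite in direction to OPR3 of jasmonate synthesis; exons of OPR1 and OPR2 overlap on the same strand. The exceptions were GSTU6 and GSTU5, called higher with DC3000 (-3.06 ± 0.35 and -1.26 ± 0.25, adjusted p = 0.000818 and 0.00803). GSTF6, a transferase also induced in defence, stood at 556, 560.4 and 246 FPKM with valinomycin and at 42.4, 55.9 and 136 FPKM with DC3000, without overlap, over a mock mean of 5.81 FPKM (difference 2.61 ± 0.46, adjusted p = 0.00441).

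**Figure D4:**
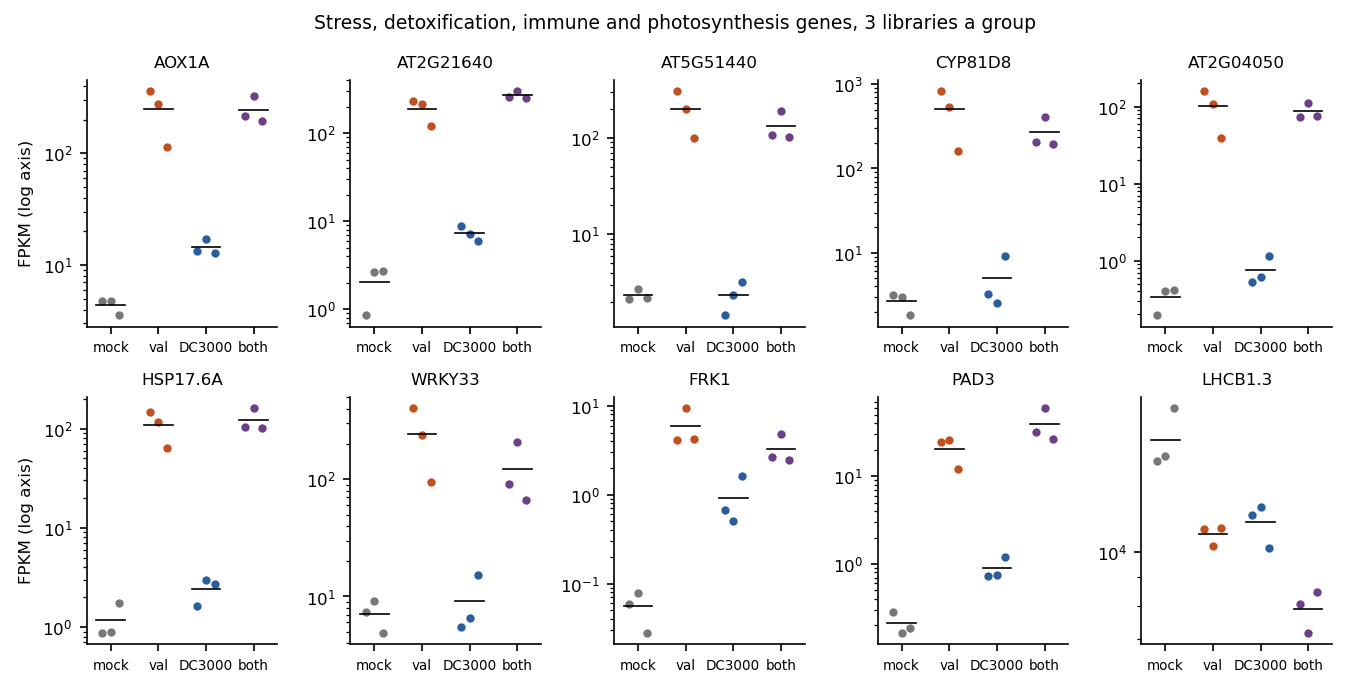
FPKM (log axis) of 10 genes of mitochondrial stress, detoxification, heat shock, immunity and photosynthesis in each library, replicates 1 to 3 from left to right; bars are group means, val is valinomycin and both is valinomycin with DC3000. In 9 panels the valinomycin libraries lie above the DC3000 libraries, as for AOX1A at 359.6, 276 and 114 FPKM against 13.3, 17.1 and 12.9 FPKM, and in the panel of LHCB1.3 the 2 groups overlap.

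Cytosolic chaperones were higher with valinomycin. Of the heat shock list 16 of 21 tested members were called higher with valinomycin and 0 higher with DC3000 (median 1.90). All genes were called so at 16.2% and 6.74%. HSP17.6A, a small heat shock protein, stood at 146, 117 and 63.9 FPKM with valinomycin and at 1.65, 2.97 and 2.71 FPKM with DC3000 (difference 4.94 ± 0.30, adjusted p = 9.03e-05). The regulator HSFA2 and the chaperones HSP90-1 and HSP101 differed by 4.1 ± 0.46, 3.82 ± 0.34 and 3.54 ± 0.32 (adjusted p = 0.000786, 0.000347 and 0.000357). The mock mean of HSFA2, 13.9 FPKM, lay between its valinomycin mean of 39.2 FPKM and its DC3000 mean of 1.21 FPKM. HSP18.2 was not called (0.45 ± 0.21, adjusted p = 0.163, and 0.0239 without valinomycin replicate 3). Of the folding genes of the endoplasmic reticulum 7 of 23 tested were called higher with valinomycin, and 4 without valinomycin replicate 2, without DC3000 replicate 1 or with a mean of at least 5. bZIP60, the factor spliced when that compartment is stressed, stood at 196, 129 and 57.8 FPKM with valinomycin and at 15.8, 15.1 and 13.3 FPKM with DC3000 (difference 2.87 ± 0.37, adjusted p = 0.00131). The chaperones BIP1 and BIP2, near-identical copies that may share reads, were not called (0.58 and 0.67, adjusted p = 0.125 and 0.106), but both were without valinomycin replicate 1 (0.0243 and 0.0255), as was BIP2 with all 12 libraries in the model (0.0403).

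Immune signalling genes stood higher with the ionophore than with the bacterium. Of the pattern-triggered immunity list 30 of 39 tested members were called higher with valinomycin and 0 higher with DC3000 (median 1.80). For all genes the shares were 16.2% and 6.74%. The receptor FLS2, which binds bacterial flagellin, and SOBIR1, a partner of receptor-like proteins, differed by 2.16 ± 0.29 and 3.00 ± 0.33 (adjusted p = 0.00156 and 0.000718). BAK1, BIK1 and CERK1, a co-receptor, a cytoplasmic kinase and the chitin receptor, were at 1.18 ± 0.23, 1.80 ± 0.37 and 1.38 ± 0.22 (adjusted p = 0.00718, 0.00926 and 0.00282). Among the kinases downstream MPK3 and MPK11 were called (1.43 ± 0.20 and 3.10 ± 0.45, adjusted p = 0.00172 and 0.00199) and MPK6 was not (0.16 ± 0.15, adjusted p = 0.506, 95% interval -0.19 to 0.50). The oxidase RBOHD, which makes the oxidative burst, was not called either (0.45 ± 0.28, adjusted p = 0.306, and 0.0361 without valinomycin replicate 3). Mock was placed differently among the 4 largest differences of the list. The DC3000 mean lay below the mock mean in PHI-1 (1.33 against 65.4 FPKM) and WRKY22 (3.45 against 8.16 FPKM). It lay above the mock mean in WRKY33 (9.07 against 7.15 FPKM) and MPK11 (0.427 against 0.166 FPKM). Valinomycin means lay above mock means in all 4.

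WRKY33 (AT2G38470, chromosome 2, 16108235 to 16110766 on the plus strand), a transcription factor that activates camalexin genes, stood at 402, 241 and 94.4 FPKM with valinomycin and at 5.53, 6.5 and 15.2 FPKM with DC3000 (difference 4.51 ± 0.52, adjusted p = 0.000822). The mock mean of WRKY33 was 7.15 FPKM, and all valinomycin libraries lay above all DC3000 libraries. WRKY40 behaved otherwise, at 262, 174 and 72.1 FPKM and 145, 100.3 and 66.0 FPKM over a mock mean of 2.08 FPKM. Its groups overlapped and it was not called (0.59 ± 0.45, adjusted p = 0.398, and 0.0246 without valinomycin replicate 3). FRK1, a receptor kinase induced by flagellin, stood at 4.17, 9.34 and 4.22 FPKM and at 0.665, 0.505 and 1.62 FPKM (difference 1.80 ± 0.31, adjusted p = 0.00438). The callose synthase PMR4, and PEN1, PEN2 and PEN3, which act at sites of attempted entry, were at 1.05, 2.34, 2.57 and 2.73 (adjusted p = 0.00354, 0.00159, 0.00102 and 0.00121).

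Over all genes 16.2% were called higher with valinomycin and 6.74% higher with DC3000. Salicylic acid genes were called higher with valinomycin in 12 of 25 tested members and higher with DC3000 in 2. The first count was 6 without valinomycin replicate 2 or DC3000 replicate 1 and 7 without DC3000 replicate 3. ICS1, the enzyme that makes most of the salicylic acid in infection, stood at 2.59, 3.07 and 3.59 FPKM with valinomycin and at 3.18, 2.71 and 2.93 FPKM with DC3000 (difference 0.04 ± 0.15, adjusted p = 0.866). These libraries overlapped, and the 95% interval was -0.30 to 0.39. EDS5, which exports the ICS1 product, and EPS1, which acts later in the pathway, were called higher with DC3000 (-1.31 ± 0.25 and -1.72 ± 0.21, adjusted p = 0.0071 and 0.000975). CBP60G, a factor that activates ICS1, the ankyrin protein gene ACD6 and the receptor genes NPR1 and NPR4 were called higher with valinomycin at 2.1 ± 0.25, 2.79 ± 0.24, 0.92 ± 0.18 and 1.14 ± 0.19 (adjusted p = 0.000924, 0.000314, 0.00805 and 0.00367). PR5 and the regulators SARD1 and WRKY70 were not called (-0.35, 0.28 and 0.23, adjusted p = 0.253, 0.377 and 0.286), and of the list's 34 genes 27 have values.

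Most calcium sensing and zinc finger genes, and fewer of the ethylene genes, were higher with valinomycin. Of 24 calcium sensing genes 17 were called higher with valinomycin and 0 with DC3000 (median 1.03). CML37 and CML12, calmodulin-like proteins induced by touch and wounding, differed by 4.13 ± 0.49 and 3.98 ± 0.48 (adjusted p = 0.000877 and 0.000936); CML12 stood at 767, 558 and 201 FPKM with valinomycin and at 22.1, 20.1 and 43.9 FPKM with DC3000. In CML12 the mock mean was 175 FPKM, between the groups. The zinc finger factor ZAT12 stood at 251, 169.8 and 72.2 FPKM and at 7.56, 5.62 and 11.6 FPKM (difference 4.04 ± 0.43, adjusted p = 0.000628), and 5 of 8 such factors were called higher with valinomycin. Of the ethylene genes 12 of 28 were called higher with valinomycin and 2 with DC3000. The synthesis enzymes ACS6 and ACS2 were at 3.56 ± 0.57 and 2.49 ± 0.43 (adjusted p = 0.00307 and 0.00412), while the response factor RAP2.6 went the other way (-3.08 ± 0.43, adjusted p = 0.00172). Enzymes that remove superoxide and hydrogen peroxide were near the background of all genes: 2 of 14 (against 16.2% of all genes), the ascorbate peroxidase APX1 and the dismutase CSD2, were called higher with valinomycin (0.88 ± 0.13 and 0.84 ± 0.16, adjusted p = 0.00223 and 0.00584), and 11 of 14 had an interval within 2-fold (75.4% of all genes had one). After median-of-ratios rescaling or without valinomycin replicate 3, 2 members of this list were called higher with DC3000.

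Among genes of energy and growth, members of the hypoxia, low-energy and auxin lists were called higher with valinomycin more often than with DC3000. That direction was also the more frequent over all genes, at 16.2% against 6.74%. HB1, a haemoglobin induced by low oxygen, and the lactate dehydrogenase gene AT4G17260 differed by 2.48 ± 0.23 and 3.23 ± 0.37 (adjusted p = 0.000393 and 0.000781), and 8 of 12 hypoxia genes were called higher with valinomycin. That count was 4 without valinomycin replicate 2 or DC3000 replicate 1, and 5 without any of the other libraries except valinomycin replicate 3, after median-of-ratios rescaling or with a mean of at least 5. PDC2, a pyruvate decarboxylase, was the exception at -0.68 ± 0.16 (adjusted p = 0.0151, and 0.0692 without DC3000 replicate 1 and 0.0684 without DC3000 replicate 2). Of 30 low-energy genes 15 were called higher with valinomycin and 2 higher with DC3000; the 15 became 8 after median-of-ratios rescaling or without valinomycin replicate 1, and 7 without valinomycin replicate 2 or either of DC3000 replicates 1 and 2. DIN10, a raffinose synthase induced in darkness, stood at 370.4, 299.5 and 174 FPKM with valinomycin and at 32.2, 38.2 and 76.1 FPKM with DC3000 (difference 2.53 ± 0.36, adjusted p = 0.00183). Of 21 starch and sugar genes 5 were called higher with valinomycin and 2 higher with DC3000, the latter 4 without valinomycin replicate 3, and the median was -0.16. These counts lie near the 16.2% and 6.74% of all genes. The sugar transporters STP1 and STP4 and the cell wall invertase CWINV1, which are among the 5, were at 1.54 ± 0.23, 1.92 ± 0.25 and 1.86 ± 0.32 (adjusted p = 0.00222, 0.00126 and 0.00403).

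Auxin response genes were called higher with valinomycin in 13 of 15 members and higher with DC3000 in 0. The count was 6 without valinomycin replicate 2 and 7 without DC3000 replicate 1 or 2. IAA16, a repressor of the pathway, stood at 191, 192 and 120.4 FPKM with valinomycin and at 61.5, 72.5 and 63.8 FPKM with DC3000 (difference 1.31 ± 0.20, adjusted p = 0.00231), with no overlap. GH3.5, which joins auxin to amino acids, was at 1.44 ± 0.22 (adjusted p = 0.00223). Of 19 autophagy genes 3 were called higher with valinomycin and 1 higher with DC3000, near the shares of all genes (16.2% and 6.74%). Without valinomycin replicate 2 or DC3000 replicate 1 the autophagy counts were 0 and 0, and without valinomycin replicate 1 or DC3000 replicate 2 they were 1 and 0.

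Valinomycin carries potassium; of 41 tested genes of the plant's own potassium and proton transport 8 were called higher with valinomycin and 7 higher with DC3000, against 16.2% and 6.74% of all genes, and 28 had an interval within 2-fold (75.4% of all genes had one). The outward channel GORK stood at 10.7, 5.84 and 2.56 FPKM with valinomycin and at 1.49, 1.33 and 1.47 FPKM with DC3000 (difference 1.44 ± 0.37, adjusted p = 0.0235), over a mock mean of 0.915 FPKM. The groups of GORK did not overlap, but the call was lost without valinomycin replicate 2 or any of the DC3000 libraries (adjusted p = 0.0693 to 0.0824). The inward channel AKT1 and the calcium sensor CBL1, which acts on it, were at 0.94 ± 0.16 and 1.51 ± 0.32 (adjusted p = 0.00381 and 0.0105); CBL1 shares exon bases with AT4G17616 on the same strand. KUP6, an uptake permease that also exports potassium in guard cells, stood at 18.5, 22.4 and 10.9 FPKM with DC3000 and at 6.31, 6.30 and 5.79 FPKM with valinomycin (difference -1.3 ± 0.24, adjusted p = 0.00524). The vacuolar exchanger NHX1 and the vascular channel AKT2 were also called higher with DC3000 (-1.25 ± 0.22 and -1.19 ± 0.22, adjusted p = 0.00504 and 0.00549). The count of 8 higher with valinomycin fell to 2 without valinomycin replicate 2 or DC3000 replicate 1, and to 3 without DC3000 replicate 2 or 3 and 5 without valinomycin replicate 1.

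Photosynthesis genes of the nucleus stood at like levels under the 2 treatments. All 47 tested members had a 95% interval within 2-fold, against 75.4% of all genes, and 0 were called either way by limma; 1 was called higher with valinomycin when all 12 libraries entered the model, and 1 higher with DC3000 without valinomycin replicate 3. The light-harvesting gene LHCB1.3 stood at 10977, 10222 and 11008 FPKM with valinomycin and at 11616, 12005 and 10150.0 FPKM with DC3000 (difference -0.07 ± 0.16, adjusted p = 0.814, 95% interval -0.44 to 0.31). Its groups overlapped, and its mock mean was 15720.0 FPKM. All 11 carbon fixation genes also had an interval within 2-fold, and 0 were called. At an unadjusted p under 0.05 there were 4 photosynthesis genes and 3 carbon fixation genes. Several of the light-harvesting genes are near-identical copies and may share reads. Of the chlorophyll synthesis genes 11 of 13 had an interval within 2-fold, and 1 was called higher with DC3000. Of 11 breakdown and senescence genes 2 were called higher with DC3000 and 1 higher with valinomycin, against 6.74% and 16.2% of all genes. The 2 were PAO and PPH (-1.33 ± 0.18 and -1.25 ± 0.20, adjusted p = 0.00148 and 0.00263). PAO shares exon bases with AT3G44870 on the same strand. The 1 higher with valinomycin (1.05 ± 0.31, adjusted p = 0.0424) had overlapping groups and lost its call in 7 alternative settings.

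Of 22 tested clock genes 15 had an interval within 2-fold, 8 were called higher with valinomycin and 0 with DC3000. For all genes the shares were 75.4%, 16.2% and 6.74%. GI, an evening gene, stood at 18.5, 23.0 and 22.5 FPKM with valinomycin and at 17.0, 19.4 and 15.4 FPKM with DC3000 (difference 0.29 ± 0.15, adjusted p = 0.199, 95% interval -0.05 to 0.63), and its groups overlapped. CCA1, a morning repressor of the clock, stood at 35.1, 20.1 and 10.9 FPKM and at 3.10, 4.09 and 4.36 FPKM (difference 2.11 ± 0.35, adjusted p = 0.00362), both far below its mock mean of 184 FPKM. RVE2, a related factor, was at 2.42 ± 0.38 (adjusted p = 0.00256), and LHY at 1.94 ± 0.45 (adjusted p = 0.0161, and 0.0616 without DC3000 replicate 1 and 0.0583 without DC3000 replicate 2). The count of 8 was 4 without valinomycin replicate 2 or either of DC3000 replicates 1 and 2, and 1 clock gene was called higher with DC3000 after median-of-ratios rescaling. Of 24 cell division genes 1 was called higher with DC3000, and 6 without valinomycin replicate 3, 0 without any of the other valinomycin libraries or DC3000 replicates 1 or 2, and 2 without DC3000 replicate 3; the median was -0.25. Of 7 markers of epidermis and shoot meristem 2 were called higher with valinomycin (median 0.23, lowest -0.33). ATML1, the largest of these, which specifies epidermis, stood at 20.6, 25 and 22 FPKM with valinomycin and at 10.3, 11.1 and 9.95 FPKM with DC3000 (difference 1.04 ± 0.13, adjusted p = 0.00116), and its mock mean was 22.5 FPKM.

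In all 8 motifs were searched, and their shares differed between the directions to unlike extents. The G-box CACGTG, to which MYC factors and factors of abscisic acid signalling bind, was in 16.6% of promoters of genes at least 2-fold higher with DC3000 (101 of 607), 7.0% of those higher with valinomycin (102 of 1458) and 8.87% of all 17870. W-boxes, searched as TTGACC or TTGACT and bound by WRKY factors, were in 47.1% of promoters on the valinomycin side, 26.5% on the DC3000 side and 32.2% of all. The heat shock element, searched as GAA, TTC and GAA with 2 bases of any kind between each, was in 1.3%, 0.329% and 0.548%. The other 4 motifs were ACGTGGC, which can overlap a G-box, at 4.8%, 4.12% and 4.85%, TGAC joined to GTCA at 0.686%, 0.988% and 0.699%, the GCC-box GCCGCC at 3.09%, 1.15% and 2.76%, and the evening element at 2.95%, 4.45% and 3.04%. Read from the motif, 206 of 1585 genes with a G-box (13.0%) were called higher with DC3000, against 6.74% of all promoters, and 183 were called higher with valinomycin. Among the 15 largest differences the G-box was in 4 promoters on the valinomycin side (26.7%) and 2 on the DC3000 side (13.3%), and it was in 0 of 10 promoters of jasmonate breakdown, 1 of 8 of jasmonate and coronatine output, 3 of 19 of jasmonate synthesis and 4 of 19 of the jasmonate receptor, repressors and MYC factors. G-box windows of 4 genes called higher with DC3000 are shown as examples, with the motif in capitals.
PGL5 (chr5:8338059-8338084, minus strand): gaacataaaaCACGTGcctctcctaa
AOS (chr5:17099586-17099611, minus strand): agagtcaaagCACGTGgctaaatgaa
RD20 (chr2:14146608-14146633, minus strand): tgaaaataacCACGTGgatggaccat
CHS (chr5:4488233-4488258, plus strand): gttaagtatgCACGTGtaagaactgg

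**Figure D5:**
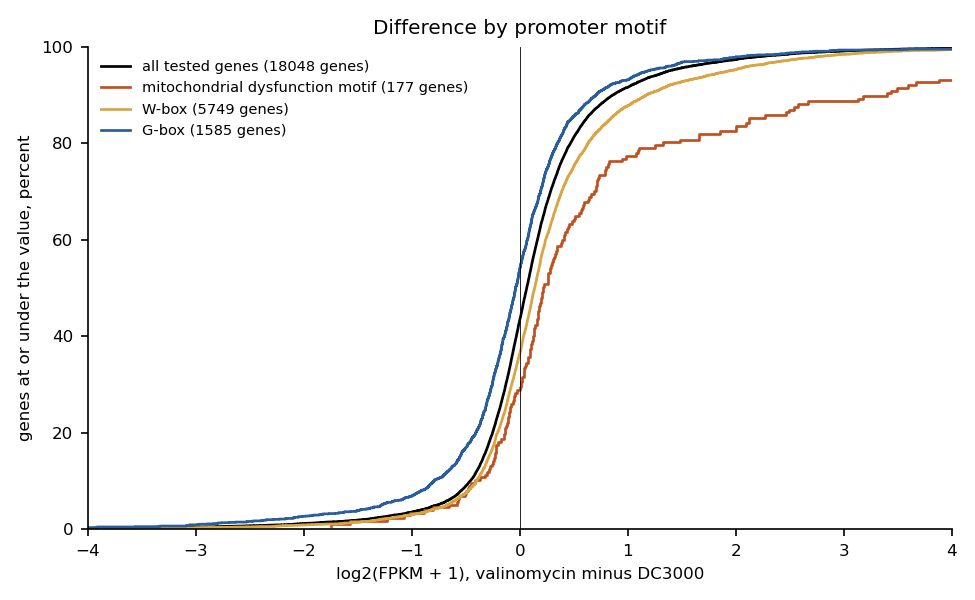
Cumulative share of genes (y axis, percent) at or under a given difference on log2(FPKM + 1), valinomycin minus DC3000 (x axis, drawn from -4 to 4), for all tested genes and for genes whose promoter holds a motif. The curve of the 177 genes with the mitochondrial dysfunction motif lies to the right of that of all genes (median 0.23 against 0.06), and that of the 1585 genes with a G-box to the left (median -0.04).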

How the data were processed

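RNA-seq libraries (mRNA, CORALL kit) of 4 groups of 3 were given as 1 table of normalized values. The table does not name its unit; the deposited values are read as FPKM, since they are not whole numbers and their totals differ between libraries. Per the submitters' processing notes, TAIR10 served as the reference build. No aligner, quantifier, filter or setting for strand was given in the sources used here. All 12 columns matched the sample labels. The values hold no 0, but the lowest is 1.26e-246 FPKM, so a value above 0 is no sign of detection. Depth was read from steps among low values where these stood out.

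The members and lists were chosen with earlier results of these data known. Genes with a mean of at least 1 over the 12 libraries were fitted on log2(FPKM + 1) with limma 3.58.1 (lmFit, eBayes with trend, R 4.3.3) over the 6 libraries of valinomycin and DC3000, which leaves 4 residual degrees of freedom. No covariate was used, and p-values were adjusted over all 18048 genes. On simulated data of 18048 genes, 64% of genes changed by 1 on the log2 scale and 93% of genes changed by 2 were recovered, with 14 false calls. Only 100 genes were changed at each size, all with a mean log2(FPKM + 1) over 2. Noise was normal and independent between genes, without the shift of replicate 3 seen in the real libraries. The recovery and false calls therefore hold for such data only. Named genes were the 15 largest differences each way without overlap and with a higher group mean of at least the median gene (9.05 FPKM), up to 4 called members of each list (or the 2 most abundant where fewer than 2 were called), fixed markers and the 5 most abundant genes within 2-fold. The text gives a part of these and adds list members picked by role after their values were seen. Copies were searched with blastn 2.17.0 (95% identity over 50% of the length) and overlaps with bedtools 2.31.1: of 224 genes checked, 15 had a copy, 6 an exon overlap on the same strand and 51 on the opposite strand. Other tools were Python 3.11.15, numpy 2.4.6, pandas 2.3.3 and matplotlib 3.10.9. The comparison was refitted under 15 alternative settings: all 12 libraries, pseudocounts of 0.1 and 5, other filters, other scalings, a replicate block, no trend, and each library left out.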

Additional observations from a re-analysis of the deposited data

How the results depend on the processing

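The count of genes called higher with DC3000 was 1216 as reported and 2056 after median-of-ratios rescaling. The count at least 2-fold higher with valinomycin was 1459 as reported, 837 with a pseudocount of 5, which by its construction shrinks differences of genes with low values, and 1762 with a pseudocount of 0.1. Leaving out 1 library at a time gave 1716 to 3426 genes higher with valinomycin, 706 to 1573 higher with DC3000, 1219 to 1749 and 528 to 749 at least 2-fold, and 12768 to 13407 with an interval within 2-fold. Called members of the gene lists then numbered 170 to 264 higher with valinomycin and 103 to 144 higher with DC3000, against 235 and 127. The cause of these changes was not tested. In a tally over all alternatives, limited to genes named above, single-gene values gained a call 16 times, lost one 15 times, changed sign 6 times and kept both 2428 times. In this tally calls were lost for UCP1, PYL5, GORK, LHY and PDC2, in each case with 1 library left out, and gained for BIP1, BIP2, MYC3, MYC4, JAR1, NDB2, WRKY40, RBOHD, HSP18.2 and NCED3. Some called list members outside the tally lost their call more often: ATG18A in 11 of the 15 settings, IAA29 in 7 and CCR2 in 6. Each of these lost it after median-of-ratios rescaling too. The sign turned in uncalled values near 0: ICS1 was at -0.027 after median-of-ratios rescaling, at -0.016 with nuclear genes scaled to 1 total, and at -0.044 to 0.13 with 1 library left out. With 1 library left out COI1 was at -0.14 to 0.073 and NAC017 at -0.0020 to 0.26.

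Replicate numbers did not pair the samples: deviations of same-numbered libraries correlated at -0.16, -0.05 and -0.12. With a replicate block 2468 genes were called higher with valinomycin and 1027 higher with DC3000, and NDB2, BIP1 and BIP2 gained a call (adjusted p = 0.0310, 0.0446 and 0.0302). Depth is unknown for 3 of the 6 libraries, so no limit of detection is given for low genes.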

Other observations

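Families grouped by their annotation after the values were seen, and so given with no test of the group, add to the lists of the report. All 20 tested cysteine-rich receptor-like kinases were called higher with valinomycin (median 2.01, against 0.06 over all genes). Over all genes 16.2% were called higher with valinomycin and 6.74% higher with DC3000. CRK11 stood at 56.5, 41.4 and 13.8 FPKM with valinomycin and at 0.883, 1.07 and 1.77 FPKM with DC3000 (difference 3.90 ± 0.44, limma adjusted p = 0.000792). Of the disease resistance proteins with TIR or NBS domains, intracellular receptors for pathogen effectors, 60 of 77 were called higher with valinomycin and 0 higher with DC3000 (median 0.83). AT1G66090 of this family stood at 99.9, 79.2 and 30.0 FPKM with valinomycin and at 1.04, 1.18 and 2.54 FPKM with DC3000. Of the leucine-rich repeat kinases 40 of 110 were called higher with valinomycin, 3 higher with DC3000 and 67 were not called, with IOS1 at 27.7, 24.7 and 10.2 against 0.450, 0.900 and 2.85 FPKM. In all of these named genes the groups did not overlap.

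Xyloglucan endotransglucosylases, which cut and rejoin cell wall polymers, were called higher with valinomycin in 12 of 19 members and higher with DC3000 in 0. TCH4 stood at 237, 133 and 68.3 FPKM with valinomycin and at 5.81, 6.51 and 10.3 FPKM with DC3000. Its mock libraries stood at 75.3, 87.1 and 55.9 FPKM, overlapping valinomycin and far above DC3000. Jacalin lectins and myrosinase-binding proteins went the other way, 7 of 15 higher with DC3000 and 1 higher with valinomycin. Ribosomal proteins differed little, with 13 of 314 called higher with valinomycin and 5 higher with DC3000, against 16.2% and 6.74% of all genes.

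The chloroplast locus ATCG00880 stood at 2385, 974 and 1043 FPKM with valinomycin and at 43.4, 40.3 and 47.1 FPKM with DC3000. It was the 1 chloroplast gene of 105 called higher with valinomycin, against 16.2% of all genes. A further 7 were called higher with DC3000, near the share of 6.74% of all genes. AT2G07335, annotated as another RNA, stood at 122, 99.2 and 48.4 FPKM with valinomycin and at 2.70, 1.43 and 0.984 FPKM with DC3000.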
